A study of Arabidopsis thaliana with 12 samples.

Results

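The B-box (BBX) genes described here are 5 loci of Arabidopsis thaliana, BBX32 (AT3G21150), BBX30 (AT4G15248), BBX31 (AT3G21890), BBX25 (AT2G31380) and BBX23 (AT4G10240), taken by locus from tables of transcript levels that list 1731 genes in all. All 5 were listed for both genotypes, and RefSeq gives each of them the B-box name used here. RNA-seq gave their transcript levels in whole seedlings, 3 days old and grown in the dark. The groups were BES1-RNAi seedlings exposed for 1 h to green light of 10 µmol per square metre per second, BES1-RNAi seedlings kept in the dark, and wild-type (WT) seedlings under the same green light or kept in the dark. Each group held 3 libraries. The BES1-RNAi line carries a transgene that silences BES1, a transcription factor of the brassinosteroid hormone pathway. The labels used here give neither the promoter of the transgene nor the number of lines, and BES1 was not analysed here, so the silencing was not checked. The labels call the libraries of a group replicates without saying whether their seedlings were grown apart, and a p-value here reflects the spread among those libraries, which may be technical.

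B-box proteins are plant zinc finger factors that carry 1 or 2 B-boxes, domains that bind other proteins, and in some members a CCT domain as well. In seedlings they act around HY5, a bZIP factor that drives the switch from growth in the dark to growth in the light (photomorphogenesis), and many of them are destroyed by the COP1 and SPA ubiquitin ligase in the dark. BBX32, BBX30 and BBX31 have 1 B-box and no CCT domain. BBX32 binds BBX21 and holds photomorphogenesis back. BBX30 and BBX31 are microproteins that bind CONSTANS and hold flowering back, and they also repress photomorphogenesis. BBX25, also called STH, has 2 B-boxes, binds HY5 and represses photomorphogenesis together with BBX24. BBX23 has 2 B-boxes, binds HY5 and promotes photomorphogenesis.

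The 5 loci lie on 3 chromosomes (RefSeq annotation of TAIR10.1). BBX32 (chr3:7412445-7413727, minus strand), BBX31 (chr3:7708833-7709933, minus strand) and BBX30 (chr4:8708841-8709482, plus strand) have 1 exon each, BBX23 (chr4:6368829-6369950, minus strand) has 2 and BBX25 (chr2:13381767-13383470, plus strand) has 3. The predicted proteins have 117 residues for BBX30, 121 for BBX31, 162 for BBX23, 225 for BBX32 and 238 for BBX25. BBX30 is followed by BBX9 on the opposite strand, with 284 bases between them, and BBX31 by BBX10 on the opposite strand, with 486 bases between them; neither neighbour was listed. BBX25 overlaps AT2G31390 on the opposite strand by 48 bases and BBX32 overlaps AT3G21140 on the same strand by 13 bases, and reads there could not be assigned with certainty. The longest identical run between any 2 of the 5 transcripts was 17 bases, between BBX23 and BBX25.

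The 300 bases before the annotated transcript start were searched on both strands for the G-box CACGTG, which HY5, phytochrome-interacting factors and BES1 can bind, for its core ACGT, and for CGTGTG or CGTGCG, forms of the element first described for the BES1 relative BZR1. The sequences of BBX30, BBX31 and BBX23 are shown, 5′ to 3′, because they compare the closest pair of rising genes with the falling one and overlap no other annotated gene. Capitals mark every match.
BBX30, chr4:8708541-8708840, strand plus: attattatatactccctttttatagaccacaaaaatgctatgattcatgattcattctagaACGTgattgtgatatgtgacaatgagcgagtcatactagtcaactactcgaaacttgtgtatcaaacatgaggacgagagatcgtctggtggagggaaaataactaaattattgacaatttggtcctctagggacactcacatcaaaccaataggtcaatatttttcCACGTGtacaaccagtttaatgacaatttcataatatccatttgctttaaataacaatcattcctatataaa
BBX31, chr3:7709934-7710233, strand minus: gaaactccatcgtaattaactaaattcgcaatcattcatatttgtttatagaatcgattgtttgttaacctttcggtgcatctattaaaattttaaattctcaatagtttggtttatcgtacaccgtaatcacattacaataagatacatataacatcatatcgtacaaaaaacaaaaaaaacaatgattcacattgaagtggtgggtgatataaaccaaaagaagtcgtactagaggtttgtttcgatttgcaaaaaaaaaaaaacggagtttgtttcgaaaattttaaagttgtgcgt
BBX23, chr4:6369951-6370250, strand minus: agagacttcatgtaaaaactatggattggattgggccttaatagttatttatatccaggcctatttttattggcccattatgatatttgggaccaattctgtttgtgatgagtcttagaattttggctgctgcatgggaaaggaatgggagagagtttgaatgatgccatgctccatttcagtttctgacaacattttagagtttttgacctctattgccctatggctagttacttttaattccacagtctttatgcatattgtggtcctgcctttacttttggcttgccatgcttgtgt
BBX30 holds 1 G-box, at positions -72 to -67 from the transcript start, and a further ACGT at -239 to -236; the G-box itself contains ACGT. BBX31 and BBX23 hold no match to any of the 3 motifs. No match was found for BBX25 or BBX32 either, but 295 and 252 bases of their windows lie inside the neighbouring genes AT2G31370 and AT3G21160. Of the windows of 27443 protein-coding genes, 7.09% held a G-box, 49% held ACGT and 7.64% held CGTGTG or CGTGCG. For the genes listed for BES1-RNAi the shares were 12.2%, 56.7% and 9.64%, and for those listed for wild type they were 12.1%, 57.8% and 9.5%. A match is a string of letters and not a measured binding site, and no match says only that these letters are not in this window.

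Levels are in FPKM, a fragment count scaled to transcript length and to library size, so that they can be compared between genes. The tables hold 1077 genes for BES1-RNAi and 1287 for wild type, with 633 in both. Sequencing depth is unknown. The sources used here do not say how the listed genes were chosen. Of those listed for BES1-RNAi 99.6% passed the test of the difference between green light and dark, and of those listed for wild type 97.6% did, so tests of that difference are given as a description. The ribosomal RNA locus AT2G01020 ranged from 4888 to 6892 FPKM in green light and from 1324 to 3151 FPKM in the dark in BES1-RNAi, and from 19426 to 52910 FPKM in green light and from 4138 to 8038 FPKM in the dark in wild type, and its part in the results below was not tested. It was lower in BES1-RNAi on the log2 scale by -2.43 in green light (adjusted p = 7.4e-05) and by -1.52 in the dark (adjusted p = 0.0047). Of 3 green mesophyll markers, LHCB1.1 and LHCB2.1 were listed, for wild type only, of 8 seed storage markers SESA5 was, also for wild type only, and of 4 root hair markers RSL4 and COBL9 were, again for wild type only. In wild type LHCB1.1 rose by 3.87 (adjusted p = 4.4e-06), LHCB2.1 by 2.34 (adjusted p = 9.7e-06), SESA5 by 0.87 (adjusted p = 0.031) and RSL4 by 0.6 (adjusted p = 0.022) in green light on the log2 scale, COBL9 did not pass (0.47, adjusted p = 0.11), and their part in the light responses below was not tested. In whole seedlings, fewer cells of a type and less RNA per cell cannot be told apart.

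Green light raised BBX32, BBX30, BBX31 and BBX25 and lowered BBX23 in both genotypes. The 4 that rose had at most 6.9 FPKM in any dark library and stood between 10.15 and 82.63 FPKM after 1 h of green light, while BBX23, the highest of the 5 in the dark, became the lowest of the 5. Differences were tested with limma on log2(FPKM + 1), with Benjamini-Hochberg adjustment over all listed genes and a threshold of 0.05, and are given on that scale with their standard error (SE). All 5 passed in BES1-RNAi and in wild type, and the green-light and dark libraries did not overlap for any of them in either genotype. These counts stand beside the 99.6% and 97.6% of listed genes that passed, and beside the 98.9% and 96.3% whose libraries did not overlap, and nothing is read from them. By direction, 73.5% of the genes listed for BES1-RNAi rose and 26.1% fell, and 62.9% of those listed for wild type rose and 34.7% fell. After centring each library on its median listed gene, 475 genes rose and 284 fell in BES1-RNAi, against 792 and 281 without it, and all 5 B-box genes kept their call in both genotypes.

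BBX32 had 37.57, 43.51 and 59.1 FPKM in the green-light libraries of BES1-RNAi, against 0.34, 0.33 and 0.13 FPKM in its dark libraries. In wild type it had 44.6, 45.77 and 38.27 FPKM in green light, against 0.23 FPKM in 1 dark library and a listed value of 0 in the other two. The transcript was thus close to 0 in every dark library, and the lowest green-light library exceeded the highest dark one 110.5-fold in BES1-RNAi and 166-fold in wild type. The log2 difference was 5.21 ± 0.19 (SE, adjusted p = 2.2e-08) in BES1-RNAi and 5.35 ± 0.17 (SE, adjusted p = 1.9e-07) in wild type. It ranked 1 of 1077 genes from the top in BES1-RNAi and 3 of 1287 in wild type.

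BBX30 had 11.79, 11.97 and 18.36 FPKM in the green-light libraries of BES1-RNAi, against 0.18 FPKM in 1 dark library and a listed value of 0 in the other two. In wild type it had 40.51, 32.29 and 39.11 FPKM in green light, against 0.33, 0 and 0.64 FPKM in the dark. The green-light level differed between genotypes without overlap, and the third BES1-RNAi library stood above the other two of its group. The log2 difference between green light and dark was 3.8 ± 0.19 (SE, adjusted p = 1.1e-07) in BES1-RNAi and 4.88 ± 0.22 (SE, adjusted p = 9.7e-07) in wild type.

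BBX31, the other microprotein gene, had 10.91, 10.15 and 12.4 FPKM in green light and 0.08, 0.16 and 0.08 FPKM in the dark in BES1-RNAi. In wild type it had 16.31, 10.74 and 15.11 FPKM in green light and 0.66, 0.41 and 0.72 FPKM in the dark. Dark values were low in both genotypes, lower in every BES1-RNAi library than in any wild-type one, and green-light values overlapped. Its log2 difference between green light and dark was 3.45 ± 0.14 (SE, adjusted p = 4.1e-08) in BES1-RNAi and 3.22 ± 0.2 (SE, adjusted p = 5.3e-06) in wild type.

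BBX25 was the one rising member of the 5 with a dark level above 5 FPKM in a genotype. It had 69.19, 82.63 and 78.57 FPKM in green light and 6.9, 5.18 and 6.58 FPKM in the dark in BES1-RNAi. In wild type it had 38.26, 51.63 and 46.08 FPKM in green light and 0.8, 1.04 and 1.5 FPKM in the dark. BES1-RNAi libraries were higher than wild-type libraries in both conditions, with no overlap. The ratio of the mean levels, green light over dark, was 12.3 in BES1-RNAi and 40.7 in wild type, and the log2 differences were 3.43 ± 0.12 (SE, adjusted p = 2.3e-08) and 4.46 ± 0.18 (SE, adjusted p = 7.1e-07).

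BBX23 moved the other way. It had 1.28, 1.29 and 1.17 FPKM in green light and 40.73, 37.99 and 42.12 FPKM in the dark in BES1-RNAi. In wild type it had 0.54, 0.54 and 0.45 FPKM in green light and 12.18, 8.75 and 5.51 FPKM in the dark. The wild-type dark libraries spread widely, with a standard deviation of 37.8% of their mean, against 5.22% for the BES1-RNAi dark libraries. The log2 difference was -4.2 ± 0.12 (SE, adjusted p = 7.8e-09) in BES1-RNAi, where it ranked 2 of 1077 from the bottom, and -2.64 ± 0.26 (SE, adjusted p = 4.4e-05) in wild type, where it ranked 16 of 1287 from the bottom.

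**Figure D1:**
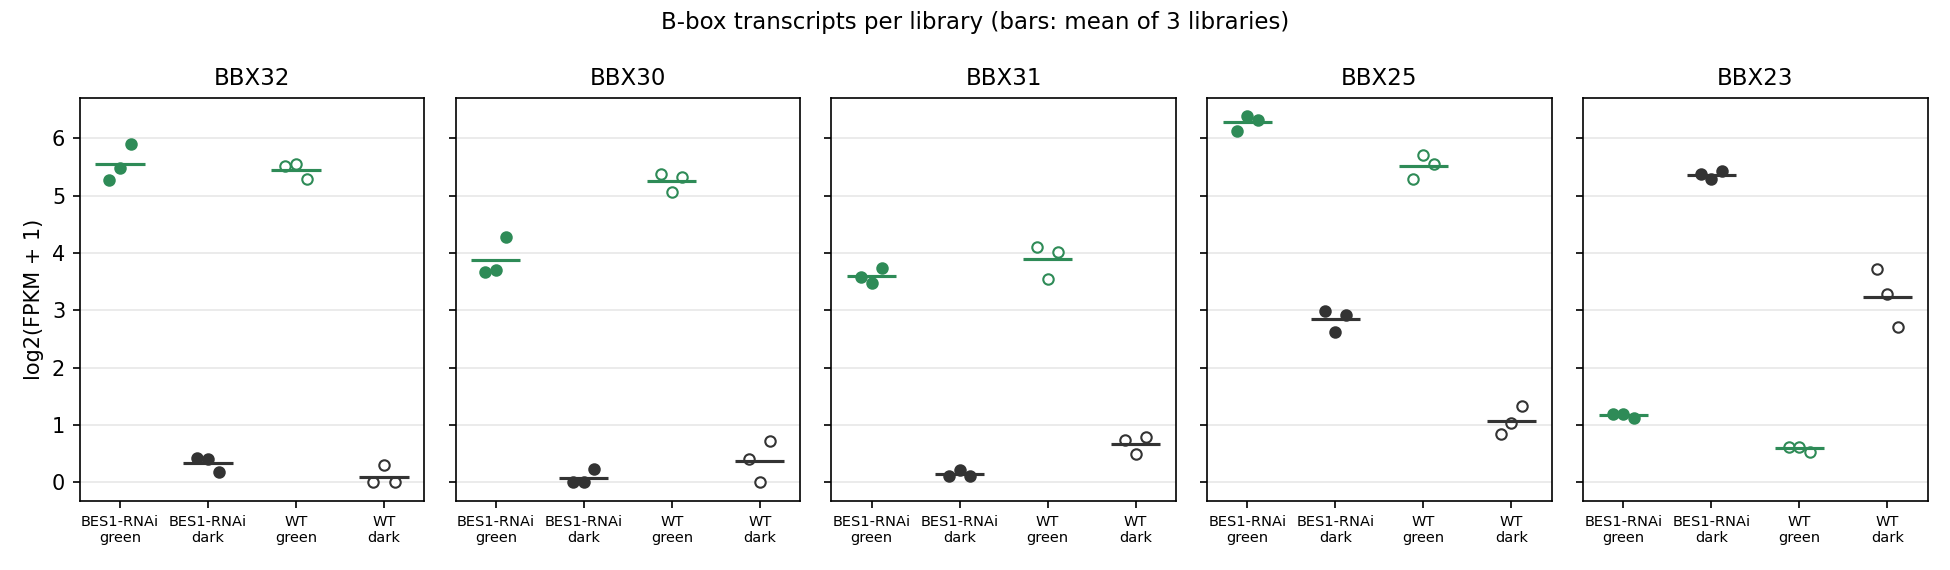
Levels of the 5 B-box transcripts as log2(FPKM + 1) in each of the 12 libraries, filled points for BES1-RNAi and open points for WT, green for green light and black for dark, with bars at the mean of 3 libraries. BBX32, BBX30, BBX31 and BBX25 are higher in every green-light library than in any dark one and BBX23 is lower, and BBX23 and BBX25 are higher in BES1-RNAi than in WT in the dark.

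The order of the 5 genes within a group followed from this. In green light the order in BES1-RNAi was BBX25, BBX32, BBX30, BBX31 and BBX23, with overlap between BBX30 and BBX31 alone among neighbours. In wild type it was the same in green light, but there the ranges of BBX25 and BBX32 overlapped, as did those of BBX32 and BBX30, while BBX30 and BBX31 did not overlap. In the dark BBX23 came first and BBX25 next in both genotypes, each apart from its neighbours. The other three, BBX32, BBX31 and BBX30, were all at or under 0.34 FPKM in BES1-RNAi and at or under 0.72 FPKM in wild type, and neighbours among them overlapped.

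In the dark, BES1-RNAi had more BBX23 and BBX25 transcript than wild type and less BBX31. BBX23 averaged 40.3 ± 2.1 FPKM in BES1-RNAi and 8.81 ± 3.34 FPKM in wild type (SD, n = 3 each), a 4.57-fold difference. BBX25 averaged 6.22 ± 0.915 FPKM in BES1-RNAi and 1.11 ± 0.356 FPKM in wild type (SD, n = 3 each), a 5.59-fold difference. BBX31 averaged 0.107 ± 0.0462 FPKM in BES1-RNAi and 0.597 ± 0.164 FPKM in wild type (SD, n = 3 each), 5.59-fold lower. Its values lie under the pseudocount of 1, which shrinks its difference on the log2 scale. The log2 differences, BES1-RNAi minus wild type, were 2.13 ± 0.2 (SE, adjusted p = 1.2e-07) for BBX23, 1.78 ± 0.15 (SE, adjusted p = 6e-08) for BBX25 and -0.52 ± 0.17 (SE, adjusted p = 0.011) for BBX31, each without overlap of the libraries. These genotype tests ran over the 633 shared genes in all 12 libraries. BBX31 was at or under 0.72 FPKM in every dark library. Leaving out any 1 library kept its call, with adjusted p from 0.0041 to 0.044.

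For BBX32 and BBX30 the dark levels of the genotypes overlapped and did not pass. The difference was 0.24 (95% interval -0.13 to 0.61, adjusted p = 0.24) for BBX32 and -0.3 (95% interval -0.73 to 0.14, adjusted p = 0.21) for BBX30. So near 0, the calls depend on the scale: with a pseudocount of 0.1, BBX32 was higher in BES1-RNAi by 1.24 (adjusted p = 0.015). After centring, the BBX32 difference was -0.17 (adjusted p = 0.39) and that of BBX30 was -0.7 (adjusted p = 0.0051). Centring subtracts each library's median after the pseudocount of 1 is added, so it shifts even values of 0. No direction is read from the centred values of BBX32 and BBX30. The count of 2 higher and 1 lower of 5 stands beside 48.7% of the shared genes called higher and 15.8% called lower (64.5% in either direction), and the 3 of 5 without overlap beside 69.0%. After centring, 199 of the shared genes were called higher and 201 lower, against 308 and 100 without it. The median difference was 0.24 for the 5 members and 0.34 for all shared genes.

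In green light the largest genotype difference among the 5 was that of BBX30, which was lower in BES1-RNAi. It averaged 14 ± 3.74 FPKM in BES1-RNAi and 37.3 ± 4.4 FPKM in wild type (SD, n = 3 each), 2.66-fold lower, with a log2 difference of -1.37 ± 0.2 (SE, adjusted p = 1.6e-05), and it ranked 10 of 633 from the bottom. BBX25 averaged 76.8 ± 6.89 FPKM in BES1-RNAi and 45.3 ± 6.72 FPKM in wild type (SD, n = 3 each), with a log2 difference of 0.75 ± 0.15 (SE, adjusted p = 0.00038). BBX23 averaged 1.25 ± 0.0666 FPKM in BES1-RNAi and 0.51 ± 0.052 FPKM in wild type (SD, n = 3 each), a 2.44-fold difference. Its log2 difference was 0.57 ± 0.2 (SE, adjusted p = 0.017). After centring on the median listed gene, BBX30 stayed lower (-1.90, adjusted p = 6.8e-07), and neither BBX25 (0.22, adjusted p = 0.23) nor BBX23 (0.041, adjusted p = 0.86) passed. BBX23 lies near the pseudocount of 1, which shrinks its difference before the median is subtracted, so its centred value understates the difference in FPKM.

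BBX32 and BBX31 did not pass in green light. BBX32 averaged 46.7 ± 11.1 FPKM in BES1-RNAi and 42.9 ± 4.04 FPKM in wild type (SD, n = 3 each), a log2 difference of 0.1 (95% interval -0.27 to 0.47, adjusted p = 0.62). BBX31 averaged 11.2 ± 1.14 FPKM in BES1-RNAi and 14.1 ± 2.93 FPKM in wild type (SD, n = 3 each), a log2 difference of -0.29 (95% interval -0.65 to 0.06, adjusted p = 0.13). Both were lower in BES1-RNAi after centring, BBX32 by -0.43 (adjusted p = 0.028) and BBX31 by -0.83 (adjusted p = 0.00024). Without centring, the call of BBX31 changed in 1 of the 12 fits that left out 1 library. That fit, without the second green-light library of wild type, gave -0.46 (adjusted p = 0.016), and the adjusted p reached 0.39 in another. The 2 higher and 1 lower of 5 stand beside 54.7% and 16.0% of the shared genes (70.6% in either direction), and the 3 of 5 without overlap beside 73.8%. After centring, 219 of the shared genes were called higher and 240 lower, against 346 and 101 without it. Centring moved the median of all shared genes by -0.53 in green light and by -0.41 in the dark, and the sources used here do not say whether the tables of the 2 genotypes were scaled together.

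**Figure D2:**
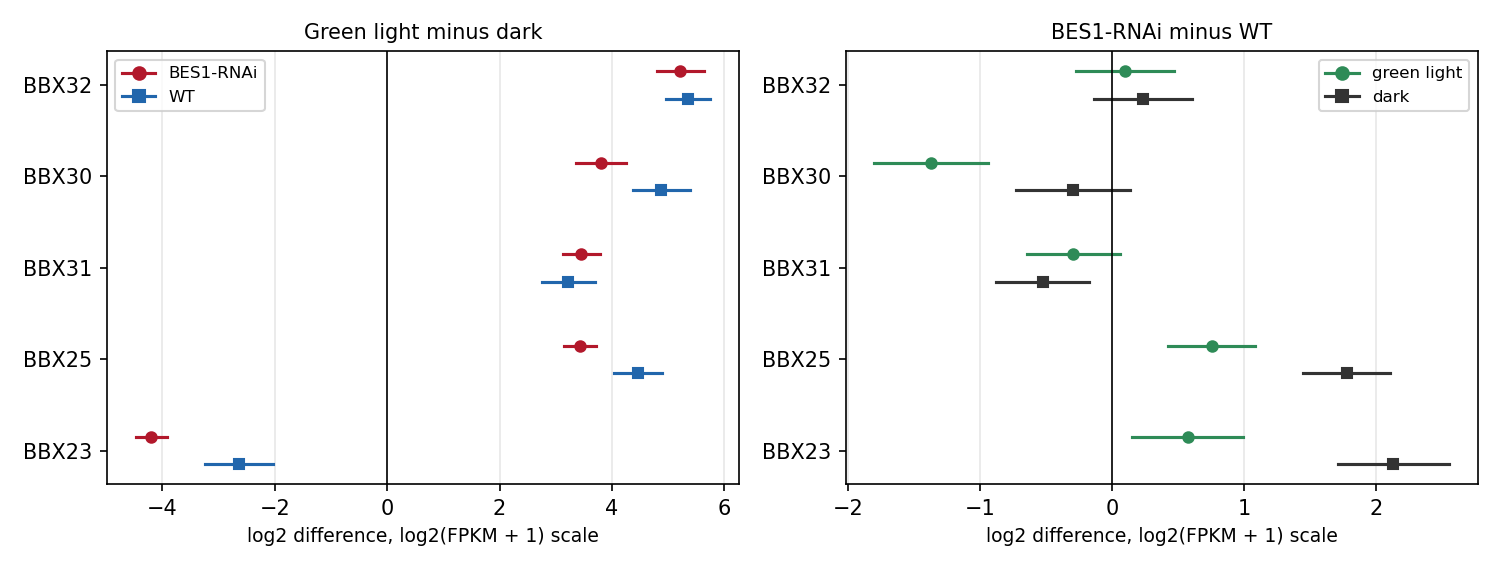
Log2 differences of the 5 B-box genes on the log2(FPKM + 1) scale, green light minus dark in each genotype (left) and BES1-RNAi minus WT in each light condition (right); points are limma estimates and lines are 95% intervals. On the right, BBX23 and BBX25 lie above 0 in both conditions, BBX30 lies at -1.37 in green light, and both intervals of BBX32 cross 0.

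The light responses themselves were then compared between genotypes by the interaction, the response in BES1-RNAi minus that in wild type. Of the 5 genes 3 passed, all with a negative value, beside 10.6% of the 633 shared genes called negative and 17.7% called positive (28.3% in either direction). After centring, 89 of the shared genes were called negative and 85 positive, against 67 and 112 without it. BBX23 fell further in BES1-RNAi, by -1.56 ± 0.28 (SE, adjusted p = 0.0011): the ratio of its mean levels, dark over green light, was 32.3 in BES1-RNAi and 17.3 in wild type. Its wild-type green-light values, 0.45 to 0.54 FPKM, lie under the pseudocount of 1, which shrinks the wild-type fall on this scale. BBX25 rose less in BES1-RNAi, by -1.02 ± 0.22 (SE, adjusted p = 0.0032), from a higher dark level. Both passed under every alternative tried.

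BBX30 also had a negative difference on the log2(FPKM + 1) scale, -1.07 ± 0.29 (SE, adjusted p = 0.012), but its dark values lie at or near 0 in both genotypes, and with a pseudocount of 0.1 the difference was -0.26 (adjusted p = 0.87). As a plain ratio the order was the other way: the lowest green-light library exceeded the highest dark one 65.5-fold in BES1-RNAi and 50.5-fold in wild type, so no direction is given for its response. BBX31 had 0.23 ± 0.24 (SE, adjusted p = 0.51), and with a pseudocount of 0.1 it rose more in BES1-RNAi, by 1.43 (adjusted p = 0.016), and its dark level was lower there. BBX32 had -0.14 ± 0.25 (SE, 95% interval -0.66 to 0.39, adjusted p = 0.73), and -1.14 (adjusted p = 0.18) with that pseudocount. For BBX30 and BBX31 the call on the response thus depends on the pseudocount.

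**Figure D3:**
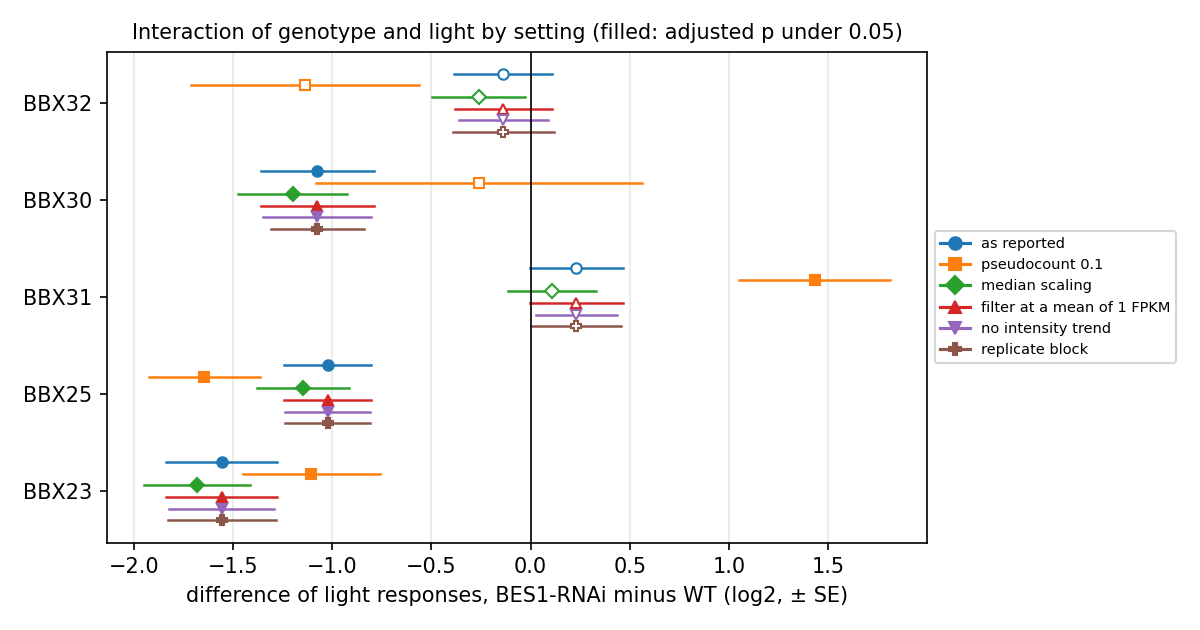
Difference of the light responses, BES1-RNAi minus WT, on the log2 scale for the 5 B-box genes under 6 settings of the test; points are limma estimates, lines are ± 1 SE and filled points passed at an adjusted p under 0.05. BBX23 and BBX25 are filled under each setting shown, BBX30 is open and BBX31 filled with the pseudocount of 0.1 alone among the settings.

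The rest of the B-box family was set beside the 5 genes, which were chosen with earlier results of these data known, so a larger change in them than in their relatives may restate that choice. Of 32 family loci, 15 were listed for at least 1 genotype: 2 of the 6 with 2 B-boxes and a CCT domain with a VP motif (structure group I), none of the 7 in group II, 2 of 4 in group III, 6 of 8 in group IV and 5 of 7 in group V. BBX23 and BBX25 belong to group IV, whose members have 2 B-boxes and no CCT domain, and BBX30, BBX31 and BBX32 to group V, whose members have 1 B-box and no CCT domain. Of the 9 relatives listed for BES1-RNAi, 7 rose (BBX2, BBX3, BBX16, BBX18, BBX19, BBX24 and BBX29) and BBX17 and BBX27 fell. Of the 8 listed for wild type, 7 rose (BBX2, BBX3, BBX18, BBX19, BBX22, BBX24 and BBX29) and BBX17 fell. Of all listed genes, 73.5% rose and 26.1% fell in BES1-RNAi, and 62.9% rose and 34.7% fell in wild type. The median log2 change of the relatives was 1.82 in BES1-RNAi and 1.92 in wild type, that of the 5 members was 3.45 and 4.46 in the same genotypes, and that of all listed genes was 1.07 and 0.82.

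BBX24, the closest relative of BBX25, was the most abundant of the listed B-box transcripts. It averaged 448 ± 19.2 FPKM in green light and 121 ± 10.7 FPKM in the dark in BES1-RNAi, and 505 ± 42.7 FPKM in green light and 91.5 ± 8 FPKM in the dark in wild type (SD, n = 3 each). BBX18, a group IV gene, averaged 47.5 ± 2.56 FPKM in green light and 5.26 ± 0.672 FPKM in the dark in BES1-RNAi, and 22.4 ± 0.776 FPKM and 2.4 ± 0.46 FPKM in wild type (SD, n = 3 each). BBX22, which promotes photomorphogenesis, was listed for wild type only and averaged 32.1 ± 7.04 FPKM in green light and 14 ± 0.207 FPKM in the dark (SD, n = 3 each). BBX2 and BBX3, CONSTANS-like genes of group I, rose by 1.44 and 2.17 in BES1-RNAi and by 1.89 and 2.05 in wild type on the log2 scale, BBX19 rose by 1.77 and 1.05 in these genotypes and BBX29 by 2.1 and 1.96, with adjusted p from 1.7e-07 to 0.00025 over the 8 values. BBX16 was listed for BES1-RNAi only, at 3.57 ± 0.536 FPKM in green light and 0.293 ± 0.11 FPKM in the dark (SD, n = 3 each).

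BBX17, a group III gene with a CCT domain, fell in green light like BBX23, but less far. The ratio of its mean levels, dark over green light, was 6.92 in BES1-RNAi and 4.84 in wild type. For BBX23 it was 32.3 and 17.3 in these genotypes. BBX17 averaged 12.5 ± 0.891 FPKM in green light and 86.5 ± 16.2 FPKM in the dark in BES1-RNAi, and 3.77 ± 0.459 FPKM in green light and 18.3 ± 3.83 FPKM in the dark in wild type (SD, n = 3 each). It was higher in BES1-RNAi by 2.18 in the dark (adjusted p = 9e-09) and by 1.5 in green light (adjusted p = 3.5e-07) on the log2 scale. BBX27 fell to 32.6 ± 1.34 FPKM in green light, against 90.5 ± 9.58 FPKM in the dark, in BES1-RNAi (SD, n = 3 each), the genotype it was listed for. Among the 7 relatives listed for both genotypes, 5 were higher in BES1-RNAi in the dark (BBX2, BBX3, BBX17, BBX18 and BBX24) and 5 in green light (BBX2, BBX3, BBX17, BBX18 and BBX19), and none was lower in either, beside 48.7% of the shared genes higher and 15.8% lower in the dark and 54.7% and 16.0% in green light. After centring, BBX2, BBX17 and BBX18 were higher in both conditions, BBX19 was lower in the dark (-0.58, adjusted p = 0.0023) and BBX24 was lower in green light (-0.7, adjusted p = 9e-06).

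**Figure D4:**
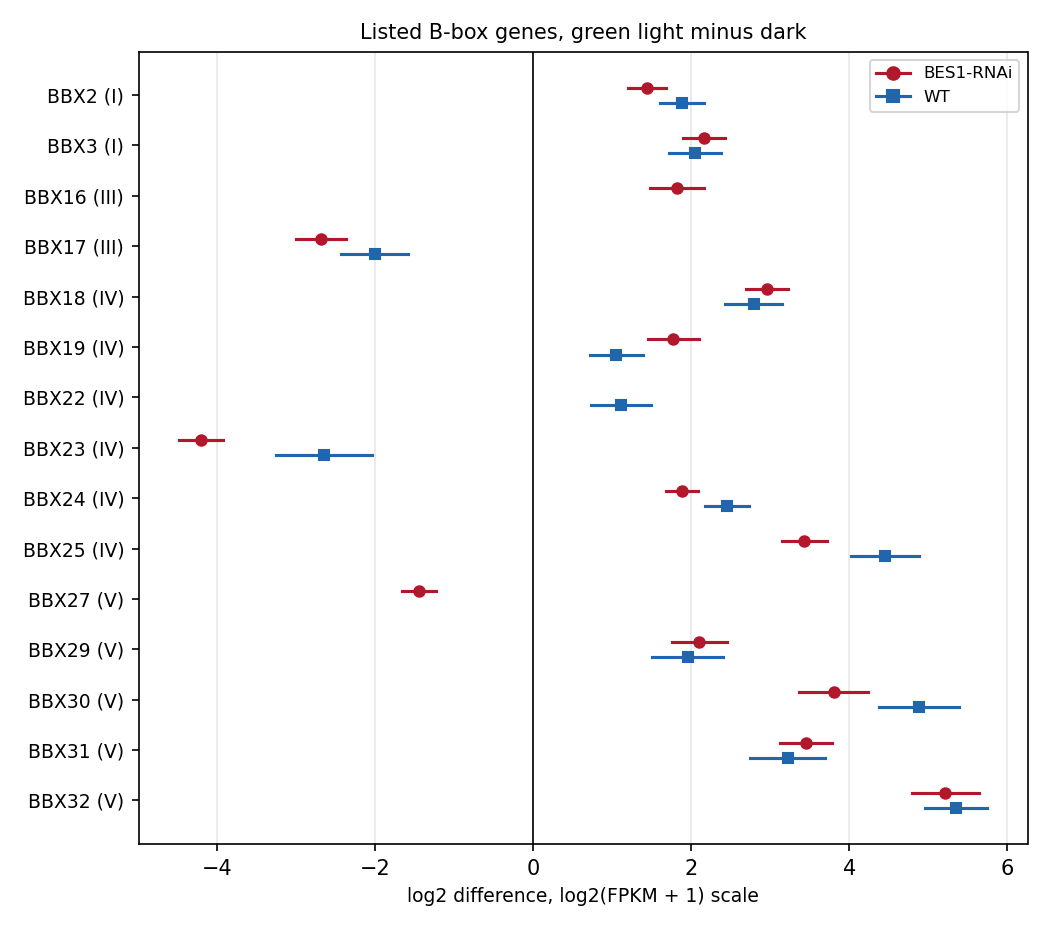
Log2 change from dark to green light, on the log2(FPKM + 1) scale, of the 15 listed B-box genes, with the structure group in brackets; points are limma estimates, lines 95% intervals, and a genotype with no point did not list the gene. BBX32, BBX30, BBX25 and BBX31 reach further right than the other listed members, and BBX23, BBX17 and BBX27 lie left of 0.

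Genes known to act with B-box factors were set beside them. Of 23 partners and regulators, 10 were listed for BES1-RNAi, of which 9 rose and PIL1 fell, and 9 were listed for wild type, of which 8 rose and PIL1 fell, beside 73.5% of listed genes that rose in BES1-RNAi and 62.9% in wild type. HY5, the bZIP partner of BBX23 and BBX25, averaged 253.5 ± 19.1 FPKM in green light and 34.1 ± 5.75 FPKM in the dark in BES1-RNAi, and 235 ± 15.3 FPKM and 18.7 ± 1.11 FPKM in wild type (SD, n = 3 each). Like BBX25, HY5 was higher in BES1-RNAi in the dark (0.82, adjusted p = 6.5e-06) and rose less there (-0.72, adjusted p = 0.0035). HYH, a homologue of HY5, was higher in BES1-RNAi by 2.27 in the dark (adjusted p = 4.4e-10) and by 1.77 in green light (adjusted p = 4.7e-09), with an interaction of -0.5 (adjusted p = 0.046).

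SPA1, of the ligase that destroys light-signalling factors in the dark, rose by 2.8 in BES1-RNAi and 2.99 in wild type on the log2 scale. RUP2, a repressor of UV-B signalling, rose by 4.29 and 3.76, and PIL1, of the phytochrome-interacting family, fell, with -3.57 and -3.88 in the same genotypes. The adjusted p of these 6 values ranged from 3.7e-09 to 4.8e-06. In the dark 7 of the 9 shared partners were higher in BES1-RNAi, RUP1, a relative of RUP2, was lower (-0.96, adjusted p = 1.2e-06) and PIL1 did not pass, and in green light 6 were higher, RUP1 was lower and HY5 and PIL1 did not pass. Of all shared genes, 48.7% were higher and 15.8% lower in the dark, and 54.7% and 16.0% in green light. After centring, 6 were higher and 2 lower in the dark and 5 higher and 2 lower in green light.

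Flavonoid genes, some of which HY5 and B-box factors are known to activate, were all higher in green light where listed, 8 of a list of 13 in each genotype, beside 73.5% of listed genes that rose in BES1-RNAi and 62.9% in wild type. After centring, 6 of 8 rose in BES1-RNAi and 7 of 8 in wild type, and none fell. F3H, a flavanone 3-hydroxylase, rose by 4.71 in BES1-RNAi and 5.53 in wild type, CHS, chalcone synthase, by 2.86 and 2.78, and their regulator MYB12 by 1.27 and 1.37. The adjusted p of these 6 values ranged from 7.8e-09 to 7.6e-05. Of the 7 listed for both genotypes, F3H, CHS, CHI, FLS1 and MYB111 were higher in BES1-RNAi in the dark, 6 were higher in green light, and none was lower, beside 48.7% of the shared genes higher in the dark and 54.7% in green light. PAP1, a regulator of anthocyanin synthesis, had 9.11, 7.26 and 8.27 FPKM in green light and 0.17, 0.24 and 0.31 FPKM in the dark in BES1-RNAi, and 1.38, 1.77 and 1.26 FPKM in green light and 0.07, 0 and 0 FPKM in the dark in wild type. Its interaction was 1.62 (adjusted p = 2.4e-05), opposite in sign to that of F3H (-0.82, adjusted p = 0.0058), and 0.92 (adjusted p = 0.15) with a pseudocount of 0.1. After centring 4 were higher and none lower in the dark, and 6 were higher and MYB12 was lower in green light (-0.49, adjusted p = 0.011).

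The listed genes most like each member were found as those with the smallest root-mean-square difference in log2(FPKM + 1) over the 12 libraries, after each gene's own mean was subtracted, among 632 other genes. Nearest to BBX25 was RPT2, a gene of phototropism, at 0.23, with SIGE at 0.37 and AT1G48100 at 0.44. Nearest to BBX31 were BGLU6 at 0.25, MAPKKK13 at 0.29 and AT2G08650 at 0.33. BBX32 was nearest to ABCI21 at 0.4, PRR9 at 0.54 and THI2.2 at 0.57, and BBX30 to ATGA2OX1, a gibberellin-inactivating oxidase, at 0.35, AT3G02910 at 0.52 and BBX31 at 0.65. BBX23 was nearest to GRF7 at 0.54, AT5G57760 at 0.61 and its relative BBX17 at 0.65. Pearson correlations of these pairs lay between 0.95 and 0.996 over the 12 libraries, which all pairs share, and nearly all listed genes differed between green light and dark.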

How the data were processed

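Transcript levels came from RNA-seq of whole dark-grown seedlings in 12 libraries, 3 in each of 4 groups. The authors deposited FPKM per gene with 2 decimals, 1 table per library. Per the submitters' processing notes, which give no role or order, Trimmomatic 0.36, HISAT2 2.2.1.0, TopHat, Bowtie2, Cufflinks, DESeq 1.18.0 and the TAIR10 build were used. The sources used here give nothing on strand use, multi-mapping reads or the choice of listed genes. Sequencing depth is unknown: at best 43.6% to 62.5% of low values in a library lay within 0.15 of a whole read, against 30% for evenly spread values, so reads were not recovered.

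The tests used limma 3.58.1 (R 4.3.3) with its intensity trend on log2(FPKM + 1), two-sided and Benjamini-Hochberg adjusted over all genes of the comparison, at a threshold of 0.05. Fold changes on this scale understate changes of low genes. Light responses were fitted within a genotype on its 6 libraries, and genotype differences and the interaction on all 12 libraries over the genes listed for both. The procedure was tested on simulated data. Alternatives were a pseudocount of 0.1, a filter at a mean of 1 FPKM, centring each library on its median gene, no trend, a replicate block and leaving out each library. Centring subtracted the median of log2(FPKM + 1), so it shifts genes near 0 as far as high ones. Its reference is not neutral, because nearly all listed genes differed between green light and dark. The genes named were the 5 members, every listed relative, HY5, HYH, PIL1, SPA1, RUP2, CHS, F3H and MYB12, and the 3 genes most like each member; other names were chosen after their values were seen. Members and lists were chosen with earlier results of these data known. The tables carry no coordinates, so positions and sequences are RefSeq's for TAIR10.1.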

Additional observations from a re-analysis of the deposited data

Results flagged for a closer look

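Light responses that differed between genotypes by the interaction test of limma (response in BES1-RNAi minus response in wild type, log2 scale, adjusted over 633 genes) are collected here, and no explanation was tested. Among the 5 B-box genes these were BBX23 (-1.56, adjusted p = 0.0011), BBX25 (-1.02, adjusted p = 0.0032) and BBX30 (-1.07, adjusted p = 0.012). Leaving out any 1 library kept all 3 calls, but a pseudocount of 0.1 ended that of BBX30 (-0.26, adjusted p = 0.87). Among relatives, BBX24 rose less in BES1-RNAi (-0.57, adjusted p = 0.0096), BBX19 rose more (0.72, adjusted p = 0.015), BBX17 fell further (-0.68, adjusted p = 0.034) and BBX2 rose less (-0.44, adjusted p = 0.046). Among partners and targets, PAP1 had the largest difference (1.62, adjusted p = 2.4e-05) and a positive one, from dark values at or near 0. HY5 (-0.72, adjusted p = 0.0035), F3H (-0.82, adjusted p = 0.0058) and HYH (-0.5, adjusted p = 0.046) rose less, and RUP2 rose more (0.54, adjusted p = 0.025). A pseudocount of 0.1 also ended the calls of PAP1 (0.92, adjusted p = 0.15), BBX17 (-0.53, adjusted p = 0.13) and RUP2 (0.31, adjusted p = 0.25), centring that of RUP2 (0.41, adjusted p = 0.074), and a fit without the intensity trend those of BBX2 (adjusted p = 0.072) and HYH (adjusted p = 0.065). The calls of BBX2, BBX17, HYH and RUP2 did not hold in 7, 8, 9 and 6 of the 12 fits without 1 library, in which the adjusted p reached at most 0.12, 0.096, 0.13 and 0.067.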

How the results depend on the processing

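The light responses of the 5 B-box genes kept direction and call under every alternative tried. Total counts of called genes stayed within 1.5 times under each. A replicate block gave 1074 genes for the light response in BES1-RNAi and 1270 in wild type, against 1073 and 1256 without it, and 407 in the dark, 444 in green light and 176 for the interaction, against 408, 447 and 179. The block ended the interaction call of BBX2 (adjusted p = 0.061) and no other call among the genes named; same-numbered libraries correlated from -0.15 to 0.23 in their deviations, not every one best with its own number, so the numbers were not taken to pair them. Centring turned the genotype difference in the dark for BBX24 (-0.0069), BBX29 (-0.32), BBX32 (-0.17), MYB12 (-0.27) and PAP1 (-0.13), in green light for BBX29 (-0.30), BBX32 (-0.43), HY5 (-0.42), PIL1 (-0.35) and MYB12 (-0.49), and the interaction for BBX3 (-0.0099) and CHS (-0.050). BBX32, MYB12 and PAP1 lay under the pseudocount of 1 in every dark library, and centring acts after it is added. Their turned signs in the dark therefore hold on that scale only. The ratios of their dark means, BES1-RNAi over wild type, were 3.48, 2.26 and 10.3. A pseudocount of 0.1 turned the interaction for BBX18 (-0.026) and CHS (-0.33). Without 1 library, values that crossed 0 ranged from -0.019 to 0.21 for BBX29 in the dark, from -0.079 to 0.24 for BBX32, -0.082 to 0.41 for PIL1 and -0.11 to 0.12 for MYB12 in green light, and from -0.32 to 0.0043 for BBX32 and -0.15 to 0.44 for CHS in the interaction. The cause was not tested. The filter at a mean of 1 FPKM left BBX30, BBX31 and BBX32 without a value in the dark.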
